A study of Drosophila melanogaster with 53 samples.

Results

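CG1607 and 6 other genes for amino acid transporters (JhI-21, mnd, slif, gb, path and CG9413) were followed in Drosophila S2 cells, 7 of the 15598 genes and 18 of the 28704 transcripts in the deposited expression tables. They were taken by gene symbol, and all 7 symbols were found. CG1607 is among the 20E-dependent genes on which the study examined the NELF complex, and the comparison asks whether its response is particular to it among amino acid transporters. The study took its list of 20E-dependent genes from an earlier report, which also described these RNA-seq data. CG1607 was thus named for a response that these same columns can hold, so its own difference is given as a description. The RNA-seq compared cells treated for 1 h with 0.3 µM 20-hydroxyecdysone (20E), the active form of the insect molting hormone ecdysone, with cells given its solvent DMSO for 1 h. S2 is an established line of hemocyte-like cells from Drosophila embryos, and the cells of both conditions were grown in serum-supplemented medium and received no dsRNA. The labels name 2 libraries per condition, but the tables hold 1 column per condition, so no spread between replicates is given and no test between conditions was made from them. The authors' own test of the conditions, which the tables also hold, was not used. Values are FPKM (fragments per kilobase of transcript, scaled to the size of the library), each with the lower and upper confidence bounds that the authors deposited and whose level is not named. A difference is described by whether these bounds overlap between the conditions.

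Amino acid transporters of the SLC7 family fall into light chains, which work at the plasma membrane as a disulfide-linked pair with a heavy chain of the SLC3 family, and cationic transporters, which work without one. Transporters of the SLC36 family carry amino acids across plasma and lysosomal membranes, and in flies members of both families have been tied to growth through the TOR kinase, the cell's sensor of amino acids. JhI-21 and mnd (minidiscs) are light chains of the kind that carries leucine, gb (genderblind) is a light chain known from the export of glutamate by glia, slif (slimfast) is a cationic transporter known from nutrient sensing in the fat body, and path (pathetic) belongs to SLC36. CG1607 and CG9413, which the BDGP6 annotation names sbm, are light chains by sequence.

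CG1607 is annotated with 2 start sites 2290 bases apart on chromosome arm 3R. The 220 bases around each start (200 before it and 20 from it onward) are shown because the transcripts in the table differ by their start and not in their coding part. Capitals mark matches to any of 5 motifs: AGGTCA, the half-site that nuclear receptors such as the ecdysone receptor bind; the inverted repeat of AGGTCA with 1 base between, which contains it; GAGAG, the core bound by GAGA factor; TATAAA; and TCAGT, an initiator. The first 3 were searched on both strands and the last 2 on the strand of the gene. The third window is that of the internal start of CG15279, a transporter gene outside the 7 that also had bounds apart, on the minus strand of chromosome arm 2L. Sequences are from the RefSeq assembly of build BDGP6 (dm6).
CG1607 distal start, chr3R:31381909-31382128, plus strand: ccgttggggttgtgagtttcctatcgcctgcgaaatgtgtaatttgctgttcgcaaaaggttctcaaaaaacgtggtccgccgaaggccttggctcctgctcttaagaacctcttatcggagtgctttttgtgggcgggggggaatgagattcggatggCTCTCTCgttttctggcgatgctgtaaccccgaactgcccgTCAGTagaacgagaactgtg
CG1607 proximal start, chr3R:31384199-31384418, plus strand: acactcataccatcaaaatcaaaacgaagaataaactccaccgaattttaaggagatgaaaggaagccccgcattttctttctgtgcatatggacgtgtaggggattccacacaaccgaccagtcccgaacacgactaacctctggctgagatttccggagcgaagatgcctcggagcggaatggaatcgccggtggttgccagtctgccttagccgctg
CG15279 internal start, chr2L:14849169-14849388, minus strand: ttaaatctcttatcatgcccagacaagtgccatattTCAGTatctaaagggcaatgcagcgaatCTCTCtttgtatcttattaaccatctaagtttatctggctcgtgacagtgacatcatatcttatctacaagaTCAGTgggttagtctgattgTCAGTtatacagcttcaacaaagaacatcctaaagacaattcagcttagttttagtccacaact
The proximal window of CG1607 held none of the 5 motifs. The distal window held TCAGT at the start base itself and a run of 7 bases with 2 overlapping GAGAG matches on the minus strand, from 41 bases before the start. AGGTCA was in none of the 18 windows of the 7 genes or the 2 of CG15279, and it is in 4.09% of the 19253 such windows of protein-coding genes. The inverted repeat was in 0 of the 19253 windows, so its absence is not particular to these genes. GAGAG was in 11 of the 18 windows, of which those of JhI-21 overlap each other, and in 26.9% of all windows. Without JhI-21 it was in 7 of 13 windows. TCAGT was in 6 of the 18 windows and in 31.5% of all windows. TATAAA was in 3 of the 18 windows and in 24.1% of all windows.

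CG1607 (FBgn0039844) was at 1.42 FPKM in DMSO, with bounds of 0.904 and 1.93. After 20E it was at 3.06 FPKM, with bounds of 2.17 and 3.96. The bounds of the conditions did not overlap, and the 20E column was the higher one. The ratio was 1.68 for FPKM + 1, or 0.75 in log2 units, a scale that compresses differences at low levels, and 2.17 for FPKM without a pseudocount. Set against each other, the bounds allow a ratio without a pseudocount from 1.13 to 4.38. In RNA from a whole culture, more cells that express a gene and more RNA per cell cannot be told apart.

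A gene was counted as higher or lower in 20E when the ratio of FPKM + 1 was above 1.5 or under its reciprocal, among genes with a mean of at least 1 FPKM over both columns. CG1607, JhI-21, mnd, gb and path passed that limit, and slif and CG9413 did not. Only CG1607 of these 5 was higher by the ratio, where 1.46% of 7615 genes were, and only CG1607 was higher with bounds apart, where 0.814% were. None of the 5 was lower by either measure (0.446% of all genes by the ratio and 0.131% with bounds apart).

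**Figure D1:**
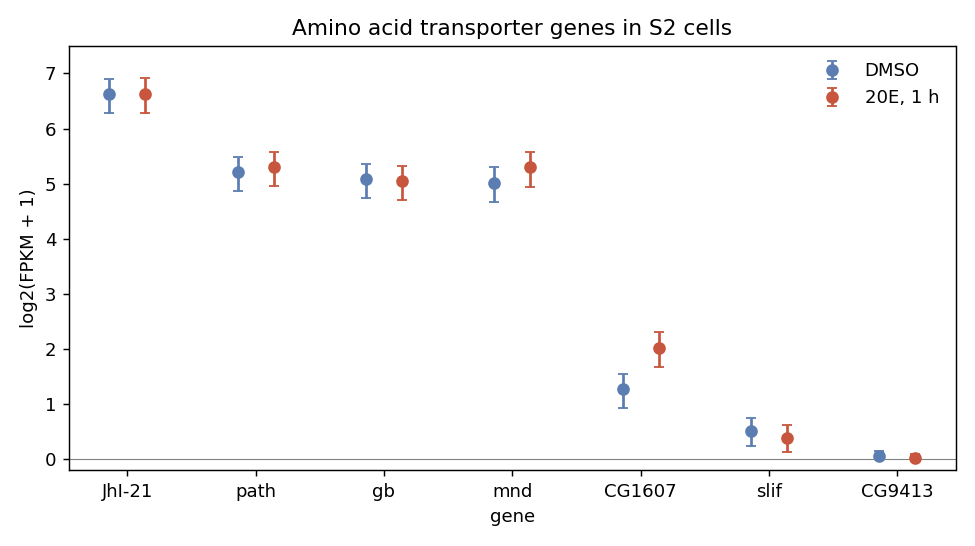
Level of each of the 7 genes as log2(FPKM + 1) in DMSO and after 1 h of 20E, with points for the deposited value and bars for the authors' lower and upper bounds. The bars of CG1607 do not overlap (1.42 FPKM against 3.06 FPKM), and those of the other 6 genes do.

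Among the other light chains, JhI-21 (FBgn0028425) had the highest level of the 7 genes, 97.5 FPKM in DMSO (76.5 to 118) and 98.4 FPKM in 20E (77.1 to 120), where the ranges in parentheses run from the lower to the upper bound. Its values differed by 0.01 on the log2(FPKM + 1) scale. mnd (FBgn0002778) was at 31.4 FPKM (24.5 to 38.4) without the hormone and at 38.3 FPKM (29.8 to 46.8) with it. The difference for mnd was 0.28 on the log2(FPKM + 1) scale, with overlapping bounds, and in FPKM it was 6.88, against 1.65 for CG1607. gb (FBgn0039487) was at 32.9 FPKM (25.7 to 40.1) in DMSO-treated cells and at 31.9 FPKM (25.0 to 38.9) in 20E-treated cells. CG9413 (FBgn0030574) was barely detected, with 0.0388 FPKM before and 0.0214 FPKM after hormone, and a lower bound of 0 in both.

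Together the 5 light chain genes summed to 163.3 FPKM in DMSO and 171.8 FPKM in 20E. CG1607 made up 0.867% of this sum in DMSO and 1.78% in 20E. JhI-21 made up 59.7% and 57.3%, mnd 19.3% and 22.3%, and gb 20.2% and 18.6%. CG1607 was thus a minor light chain transcript in both conditions. CD98hc, the gene of the SLC3 heavy chain that light chains pair with, had 87.7 FPKM (69.0 to 106) in DMSO and 87.9 FPKM (69.1 to 107) in 20E.

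slif (FBgn0037203), the cationic transporter, was low, with 0.427 FPKM (0.177 to 0.677) in DMSO and 0.314 FPKM (0.0984 to 0.529) in 20E. path (FBgn0036007), of SLC36, had 35.9 FPKM (28.1 to 43.7) in DMSO and 38.4 FPKM (30.1 to 46.8) in 20E. Both had overlapping bounds, and on the log2(FPKM + 1) scale slif differed by -0.12 and path by 0.10.

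In DMSO the order of levels was JhI-21, path, gb, mnd, CG1607, slif and CG9413. After 20E it was JhI-21, path, mnd, gb, CG1607, slif and CG9413. Within the set of path, gb and mnd, neighbours in the order had overlapping bounds in both conditions, and all other neighbours had bounds apart. CG1607 therefore kept the fifth place, below mnd or gb and above slif, and its level in 20E was under the lower bound of gb (25.0 FPKM).

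By transcript, for which FPKM comes without bounds, nearly all of CG1607 lay on FBtr0085786, the transcript from the proximal start. This transcript was at 1.42 FPKM in DMSO and, with 97.4% of the gene, at 2.98 FPKM in 20E. FBtr0085785, from the distal start, made up 3.3e-05 FPKM in DMSO and 0.0807 FPKM in 20E, so the difference in CG1607 was one of the proximal transcript. These transcripts share a coding part of 1515 bases and differ in the noncoding first exon, so the split between them rests on fragments that reach that exon. BDGP6 holds another 2 transcripts of CG1607, from the same 2 starts, which are not in the transcript table.

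The 3 transcripts of JhI-21 share a coding part of 1500 bases, and FBtr0089655 carried 97.3% of the gene in DMSO (94.9 FPKM) and 95.8% in 20E (94.3 FPKM). FBtr0305089 of JhI-21 went from 0.834 to 1.69 FPKM and FBtr0089656 from 1.78 to 2.39 FPKM, both small beside the main transcript. For mnd, FBtr0075627 from the internal start had 20.9 FPKM in DMSO and 25.0 FPKM in 20E, and FBtr0114529 from the upstream start 8.95 and 11.2 FPKM. The values of these main transcripts of mnd differed by 0.24 and 0.29 on the log2(FPKM + 1) scale, both short of the ratio of 1.5. FBtr0334065 of mnd, which BDGP6 does not hold, went from 0.777 to 2.19 FPKM, while FBtr0075626 went from 0.788 FPKM to a listed value of 0. gb had 1 transcript in the table, FBtr0085132, which carried the values of the gene. path lay on FBtr0076427 (35.7 FPKM in DMSO and 38.4 FPKM in 20E), slif on FBtr0078555 (0.409 and 0.314 FPKM) and CG9413 on FBtr0073943 (0.0388 and 0.0214 FPKM). The other transcripts of path, slif and CG9413 were at 0.160 FPKM or less in both conditions.

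**Figure D2:**
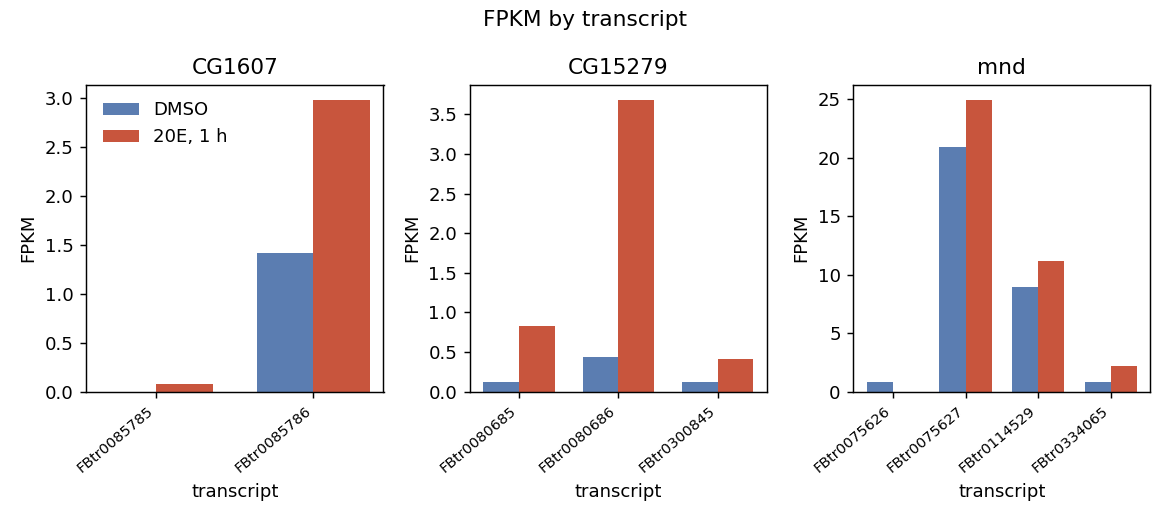
FPKM of each transcript in the table for CG1607, CG15279 and mnd, in DMSO and after 1 h of 20E. In CG1607 the transcript from the proximal start (FBtr0085786) holds both values and their difference, 1.42 FPKM against 2.98 FPKM.

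The low level of CG1607 bears on its precision. Low values of genes with 1 transcript fell on whole steps, which give an estimate of the fragments behind a value. Of such values, 92.0% of 437 in DMSO and 88.0% of 375 in 20E were whole multiples to within 0.15 of a step. A step fixed beforehand would give 30% by chance. The step was chosen on these same values, so 30% is not the chance level for it. By these steps the 20E column was the deeper one, with 1.45 times the fragments per FPKM. Over the 7615 genes the median excess of the upper bound was 24.3% in DMSO and 24.4% in 20E. A deeper 20E column thus rests on the steps alone. If 1 step is 1 fragment, which was not tested, CG1607 rests on about 324 fragments in DMSO and 1018 in 20E. With that number, counting error alone (95%) gives an interval of 1.91 to 2.45 for its ratio without a pseudocount. JhI-21 rests on about 15582 and 22805 fragments, with an interval of 0.989 to 1.03. The interval for mnd was 1.18 to 1.26, for path 1.04 to 1.10, for gb 0.940 to 1.00, and for slif, with 90 and 96 fragments, 0.551 to 0.980. CG9413 had about 10 and 8 fragments, with the widest interval of the 7 genes, 0.217 to 1.40. Such intervals cover counting error only, leave out variation between cultures and are narrower than the ranges by the authors' bounds. By counting error CG1607 lay above each of the other 6 genes, and by the authors' bounds it did not.

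The wider question was put to 46 genes of families that hold amino acid transporters, the 7 included, called listed transporters here. Among them are the heavy chain CD98hc, which is a partner of transporters, and DAT and SerT, the transporters of dopamine and serotonin. DAT and SerT were under 1 FPKM in both conditions. Of the 46 genes, 5 were listed at 0 in both conditions and 16, CD98hc included, had a mean of at least 1 FPKM. CG1607 and CG15279 were higher by the ratio and had bounds apart, so the count was 2 of 16 by either measure (1.46% of all genes by the ratio and 0.814% with bounds apart), and 0 of 16 were lower (0.446% and 0.131%). The median change of the 16 was -0.03 on the log2(FPKM + 1) scale, against 0.00 over all 7615 genes. The other 14 ranged from -0.24 to 0.38 on this scale, with a median of -0.04. Their 14 pairs of bounds all overlapped.

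CG15279 (FBgn0028886), of the SLC6 family of sodium-dependent symporters, had 0.679 FPKM (0.316 to 1.04) in DMSO and 4.92 FPKM (3.51 to 6.33) in 20E. Its ratio was 3.53 for FPKM + 1 and 7.25 for FPKM, which placed it first of the 16 and CG1607 second. Over all 7615 genes CG15279 had rank 20 and CG1607 rank 74. CG15279 passed the limit of a mean of 1 FPKM through its value in 20E alone, so it had to differ, whereas CG1607 was above 1 FPKM in both conditions. With a limit of 1 FPKM in DMSO instead, an alternative chosen after the values were seen, CG1607 was the only one of 14 listed transporters that was higher (1.27% of all genes). CG15279 also has 2 starts, 2561 bases apart, and its internal transcript FBtr0080686 had 0.439 FPKM in DMSO and 3.69 FPKM in 20E. FBtr0080685 and FBtr0300845 of CG15279, from the upstream start, went from 0.123 to 0.827 FPKM and from 0.117 to 0.407 FPKM. By the same steps, about 116 and 1193 fragments lay behind CG15279, and the counting interval of its ratio was 5.99 to 8.77.

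**Figure D3:**
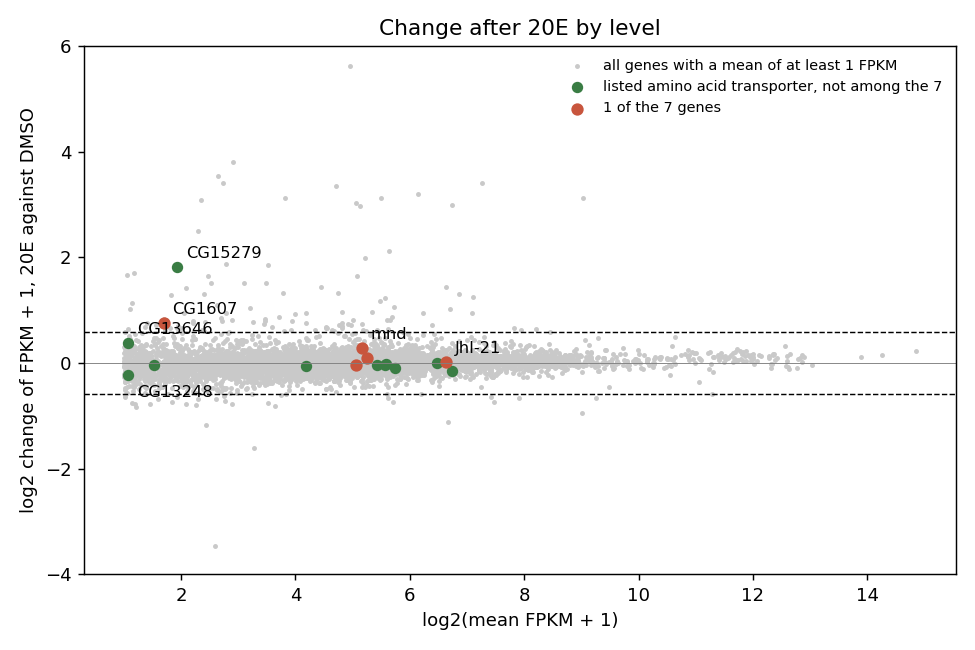
Change of each gene with a mean of at least 1 FPKM, as log2 of the ratio of FPKM + 1 between 20E and DMSO, against log2(mean FPKM + 1). Dashed lines mark a ratio of 1.5 either way; CG15279 (1.82) and CG1607 (0.75) lie above the upper line and the other 14 listed transporters lie between the lines.

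Whether CG1607 differs in its response from another transporter was read from the ranges of the ratio that the bounds allow, since single columns allow no test of that difference. The range of CG1607, 1.13 to 4.38, overlapped that of each of the other 15 genes. It reached down to 1.13, under the upper end for mnd (1.91), path (1.66), JhI-21 (1.56), gb (1.51) and CD98hc (1.55). At the other end it met CG15279, whose range was 3.37 to 20.0. The ranges of CG1607 and CG15279 thus lay above 1, and those of the other 14 genes included 1. CG1607 was named for its response, and CG15279 passed the limit on the mean through its value in 20E alone. Their ranges above 1 are therefore a description and lend no support. The bounds do not set CG1607 apart from any of the 15.

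**Figure D4:**
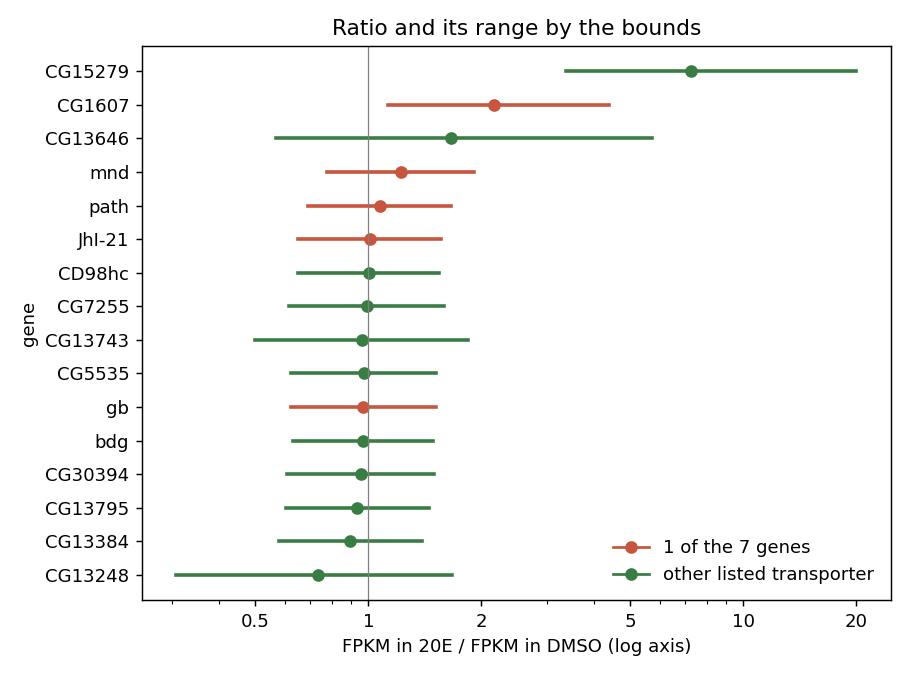
Ratio of FPKM between 20E and DMSO without a pseudocount for the 16 listed transporters with a mean of at least 1 FPKM, on a log axis, with lines from the lowest to the highest ratio that the authors' bounds allow. The lines of CG15279 and CG1607 (1.13 to 4.38) stay above 1, and the line of CG1607 overlaps each other line.

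By family, 4 light chain genes passed the limit on the mean, and CG1607 was the only one of the 4 that was higher by the ratio (1.46% of all genes, for each family). In the cationic group, 0 of 3 were higher, with CG7255 the highest in level with 47.4 FPKM in DMSO and 47.0 FPKM in 20E. In the SLC36 group, 0 of 3 were higher. Its highest gene, CG13384, had 112 FPKM in DMSO and 100.3 FPKM in 20E, and CG13646 had 0.835 FPKM and 1.39 FPKM; the bounds of both overlapped. In SLC6, CG15279 was 1 of 3, and CG13795 had the highest level, 54.4 FPKM in DMSO and 50.8 FPKM in 20E. In SLC32 and SLC38, 0 of 2 were higher, with CG30394 the highest at 17.6 and 16.8 FPKM. Eaat1 and Eaat2, the glutamate transporters of SLC1, were both under 1 FPKM. The summed FPKM of the 46 genes was 616.6 in DMSO and 612.5 in 20E, so the sum was nearly level while CG1607 and CG15279 were higher.

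Genes of amino acid sensing (TOR, its partners, the Rag GTPases, Sesn, Gcn2 and crc, the fly counterpart of ATF4) were set beside the transporters. All 11 had a mean of at least 1 FPKM, 0 were higher or lower by the ratio (1.46% and 0.446% of all genes), and their changes lay between -0.11 and 0.13 on the log2(FPKM + 1) scale. The highest of them, crc, had 382 FPKM in DMSO and 366 FPKM in 20E. As a scale for the response, the 7 known ecdysone-responsive genes Eip74EF, Eip75B, Eip78C, vri, Hr46, Hr4 and E23 were all higher with bounds apart (0.814% of all genes), by 1.44 to 3.41 on that scale. Hr46, Hr4 and E23 passed the limit on the mean through their values in 20E alone, so they had to differ, and the other 4 were above 1 FPKM in DMSO. The change of CG1607 was 0.75, under the lowest of these.

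Of the genes around CG1607, those that share its locus or lie next to it were at or near 0. CG31204, listed with the same locus (chromosome arm 3R from 27207832 to 27219249 in the positions of the tables, which name no build), was listed at 0 in DMSO and at 0.00580 FPKM in 20E. Distances here are between listed loci, and CG1607 shares its locus with CG31204, so they can differ from distances to CG1607 itself. Upstream, gskt was at 0.0613 and 0.0158 FPKM. CG34347, with a locus 11333 bases away, had 10.3 FPKM (7.68 to 13.0) in DMSO and 11.2 FPKM (8.33 to 14.0) in 20E. Downstream, CG31002, with a locus 54 bases away, was listed at 0 in DMSO and at 0.0342 FPKM in 20E. Gcn2, with a locus 2130 bases away, had 19.3 FPKM (12.3 to 26.3) in DMSO and 19.9 FPKM (12.6 to 27.2) in 20E. None of these had bounds apart, as CG1607 did.

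The 5 genes nearest to CG1607 by level in both conditions, by Euclidean distance in log2(FPKM + 1), were CG31230, CG9733, CG31778, CG17650 and CG33082, at distances of 0.03 to 0.10. Of these, CG9733 alone had bounds apart, with 1.35 FPKM (0.693 to 2.00) in DMSO and 3.16 FPKM (2.03 to 4.29) in 20E. The likeness rests on 2 values per gene.

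Markers of the cells were read as a check of the label. The hemocyte genes srp, Pxn and crq were between 93.3 and 117 FPKM in both conditions, while Hml and nimC1 were at 0.104 FPKM or less. The hemocyte receptor gene eater went from 8.20 FPKM (6.21 to 10.2) to 13.8 FPKM (10.6 to 17.0), and its part in the values of CG1607 was not tested. Of 5 markers of neurons, muscle and fat body, elav was at 3.63 and 3.66 FPKM and the other 4 were under 0.43 FPKM in both conditions. The 2 columns summed to 858770 FPKM in DMSO and 895772 FPKM in 20E, and over the 7615 genes the median excess of the upper bound over the value was 24.3% in DMSO and 24.4% in 20E.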

How the data were processed

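RNA-seq of S2 cells (4 of the 53 samples in the series, polyA RNA) was used; ChIP-seq is not analysed here. For each condition the authors deposited FPKM values in the Cuffdiff layout, 1 column each, and for genes lower and upper bounds. Replicates were therefore pooled in these columns, and libraries are not said to come from separate cultures. The submitters' processing notes name bcl2fastq 2.17.1.14, Bowtie2 2.3.4.2, deepTools 3.0.2 and TopHat2, and the builds dm6 and dm3, with no role. The build of the tables and the RNA-seq counting are not given in the sources used here. The tables also hold 5 columns of the authors' comparison of the conditions (fold change, test statistic, p-value, q-value, call), which were not used.

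Changes were computed as log2((20E + 1) / (DMSO + 1)) in Python 3 with NumPy and pandas, for genes with a mean of at least 1 FPKM. The 4 genes whose status was not OK were left out. An exact 0 can be a failed estimate, so such genes are said to be listed at 0. The FPKM of a gene equalled the sum of its transcripts within 1%. The 47 transporter names matched 46 genes, since CG12943 and polyph are 1 gene. No stretch of 50 bases from the transcripts of the 7 genes or CG15279 was found in the BDGP6 assembly outside its own gene. Steps in low FPKM values were found with transcript lengths of BDGP6, less 200 bases; 1 transcript of mnd has no length there and was left out of its fragments. The code was tested on simulated data.

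The named genes are the 7 genes, the genes of each list past the ratio of 1.5 or with bounds apart, the highest gene of each list, the neighbours of CG1607 and the 5 genes nearest to it in level; CG13646 and further values were named after they were seen. Members and lists were chosen with earlier results of these data known. Alternatives were pseudocounts of 0.1 and none, lower and higher limits on the ratio, other limits on level, scaling to the median ratio, and the largest transcript.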

Additional observations from a re-analysis of the deposited data

How the results depend on the processing

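No paired analysis was possible because the tables hold 1 column per condition, and for the same reason no replicate could be left out. Of 59 alternative values, 48 stayed close to the reported ones (within a spread taken from the width of the bounds, or within 1.5 times for a count), and none turned the direction of CG1607. Its change of 0.75 on the log2 scale became 1.06 with a pseudocount of 0.1 and 1.11 with none, and was 0.75 after scaling and 0.72 for its largest transcript. For the low genes, slif became -0.35 and -0.44 and CG9413 -0.19 and -0.86 with these pseudocounts, on bounds that overlap. The count of 2 transporters that were higher became 3 with either of these pseudocounts or with the lower limit on the ratio (CG13646 joined in each case, with overlapping bounds, and passed the limit on the mean through its value in 20E alone) and 1 with a ratio of 2. With a mean of at least 5 FPKM it was 0, as was the count with bounds apart, since CG1607 and CG15279 are both under that limit. With at least 1 FPKM in DMSO, chosen after seeing the data, the count was 1 and CG1607 had rank 1. At a mean of at least 5 FPKM no rank of CG1607 can be given. Depth limits slif and CG9413 most, and the pooled columns leave the spread between cultures unknown.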
